A study of Mus musculus with 26 samples.

Results

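Genes that carry out mitosis, the division of the copied chromosomes between 2 daughter cells, were followed in the lungs of mice that breathed ozone (O3). A list of 46 such genes was chosen with earlier results of these data known. By textbook roles, it holds kinases and cyclins that start mitosis, the spindle checkpoint, centromere and kinetochore proteins, and spindle motors. It also holds the proteins that trigger anaphase, condensins and cytokinesis factors. The platform's annotation held 44 of the 46, among 12394 genes with a probe set of 1 symbol; Cdca8 and Espl1 were not found in it. Where a gene had several probe sets, the one with the highest mean was used. These genes are held low in resting tissue and are switched on together as a cell passes from S phase into G2 and mitosis. In the adult lung few cells divide, and epithelial injury is classically followed by division of club cells, type 2 cells, macrophages and others.

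Left lungs of male C57BL/6 mice (Il10+/+) and of the B6.129P2-Il10tmlCgn/J strain (Il10-/-, the name as spelled in the labels), which carries a targeted allele of the anti-inflammatory cytokine gene Il10 in every cell, were compared. The name of the second strain gives a B6 background with sequence from another strain. The mice were 6 to 8 weeks old and breathed filtered air with 0.3 ppm O3, or without it, for 23.5 hr a day. In each genotype there were 4 air arrays (2 after 24 hr and 2 after 48 hr, pooled as 1 air group), and 3 arrays each after 24, 48 and 72 hr O3. No 72 hr air array was analysed here, so 72 hr O3 was set against the same air group. Values are log2 expression of whole lung tissue, in which more cells of a type and more RNA per cell cannot be told apart.

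Libraries that stood apart were handled as follows. The second Il10-/- array of 24 hr O3, which the authors also left out of their analysis, was not used in any comparison, so that group had 2 arrays. Its correlation with the other arrays over all genes was 0.816 to 0.849, against at least 0.964 among the other 25. On it the mean log2 level of 10 alveolar type 2 cell markers was 7.02, against 12.35 or more on every other array, and that of 7 erythroid markers was 10.81, against 5.95 or less, so it went against its label of lung. On the other 25 arrays the lung markers were high. The Il10 probe set read 3.92 to 4.25 on the 13 Il10+/+ arrays and 6.29 to 7.71 on 11 of the 12 Il10-/- arrays. It thus read higher in the mice with the targeted allele, whereas the paper reports that Il10 mRNA was not detected in their lungs. The reading is used here only to tell arrays apart, and what it measures in these mice was not tested. The array labelled Il10-/-, air 48 hr, replicate 1, read 3.87, within reach of the Il10+/+ arrays. Counts of mitosis genes, of the cell cycle lists and of the markers that rest on the Il10-/- air group are given below with and without it.

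The promoters of these genes carry a known signature. The cell cycle homology region (CHR) is a short element bound by the DREAM and MuvB complexes, which hold mitotic genes off in resting cells, and it usually lies near CCAAT boxes bound by NF-Y. Promoter windows of 300 bases, from 250 before to 50 after the RefSeq start, were found for 35 of the 44 genes (RefSeq, GRCm38.p6). Motifs were searched on both strands. A CHR was counted where the letters were TTTGAA, and also where they were TTCGAA. For the other element the letters were CCAAT. For E2F they were TTGGCGC, with TTCGCGC and likewise TTCCCGC as other forms. The 200 bases before the start site are shown for 5 genes that rose and have both elements there. Mybl2, which was not called and has none, follows. Capitals mark CHR matches and CCAAT boxes on either strand, and the start site follows the right end of each line.
Cdk1: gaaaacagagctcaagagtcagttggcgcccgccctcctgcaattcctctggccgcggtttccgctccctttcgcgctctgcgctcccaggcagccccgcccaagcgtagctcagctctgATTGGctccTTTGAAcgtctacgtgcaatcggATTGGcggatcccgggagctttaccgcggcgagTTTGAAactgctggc
Cdc20: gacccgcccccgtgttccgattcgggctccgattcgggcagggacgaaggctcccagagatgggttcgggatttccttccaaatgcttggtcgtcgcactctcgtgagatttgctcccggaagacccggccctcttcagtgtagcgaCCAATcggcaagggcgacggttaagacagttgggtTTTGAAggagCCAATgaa
Ube2c: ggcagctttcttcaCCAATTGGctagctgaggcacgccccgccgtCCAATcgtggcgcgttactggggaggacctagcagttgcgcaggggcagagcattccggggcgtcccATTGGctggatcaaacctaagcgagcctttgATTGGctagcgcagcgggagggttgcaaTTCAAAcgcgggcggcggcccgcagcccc
Top2a: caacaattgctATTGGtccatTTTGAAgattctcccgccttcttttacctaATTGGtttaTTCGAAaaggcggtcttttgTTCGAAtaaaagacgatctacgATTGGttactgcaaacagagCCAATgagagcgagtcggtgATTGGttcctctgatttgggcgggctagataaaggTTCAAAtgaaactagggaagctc
Mki67: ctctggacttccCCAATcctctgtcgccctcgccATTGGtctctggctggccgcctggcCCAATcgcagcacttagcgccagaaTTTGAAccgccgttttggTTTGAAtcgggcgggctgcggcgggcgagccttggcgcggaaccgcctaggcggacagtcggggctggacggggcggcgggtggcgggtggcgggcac
Mybl2: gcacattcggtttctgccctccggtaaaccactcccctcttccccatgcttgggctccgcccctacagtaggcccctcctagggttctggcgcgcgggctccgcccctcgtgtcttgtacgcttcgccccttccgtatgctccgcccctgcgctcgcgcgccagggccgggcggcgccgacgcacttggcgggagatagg
The stretches are Cdk1 (chr10:69352913-69353112, minus strand), Cdc20 (chr4:118437344-118437543, minus strand), Ube2c (chr2:164769729-164769928, plus strand), Top2a (chr11:99024190-99024389, minus strand), Mki67 (chr7:135716380-135716579, minus strand) and Mybl2 (chr2:163054435-163054634, plus strand). The Cdk1 stretch holds 2 CHR matches, the Cdc20 stretch 1, and the Top2a stretch 4 among 5 CCAAT boxes.

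A CHR match was found in 26 of the 35 windows (74.3%), against 17.3% of the 9883 tested genes with a window and 21.7% of all 27025 genes in the promoter table. In 23 genes a match lay within 50 bases of the start on either side. A CCAAT box was present in 24 (68.6%, against 42.3% of tested genes), and both elements in 22 (62.9%, against 8.16%). E2F letters were in 5 (14.3%, against 14.8%). No CHR match overlapped a CCAAT box, and in 1 gene an E2F match did. Of 35 windows of other mitosis genes induced in the cell cycle, a CHR was in 21 (60.0%), a CCAAT box in 25 (71.4%) and both in 16 (45.7%). The DNA replication genes had E2F letters in 20 of 31 windows (64.5%) and a CHR in 5 (16.1%). Mitosis machinery genes that are expressed through the whole cell cycle had a CHR in 6 of 32 (18.8%). A match is a string of letters and was not tested for binding.

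**Figure D1:**
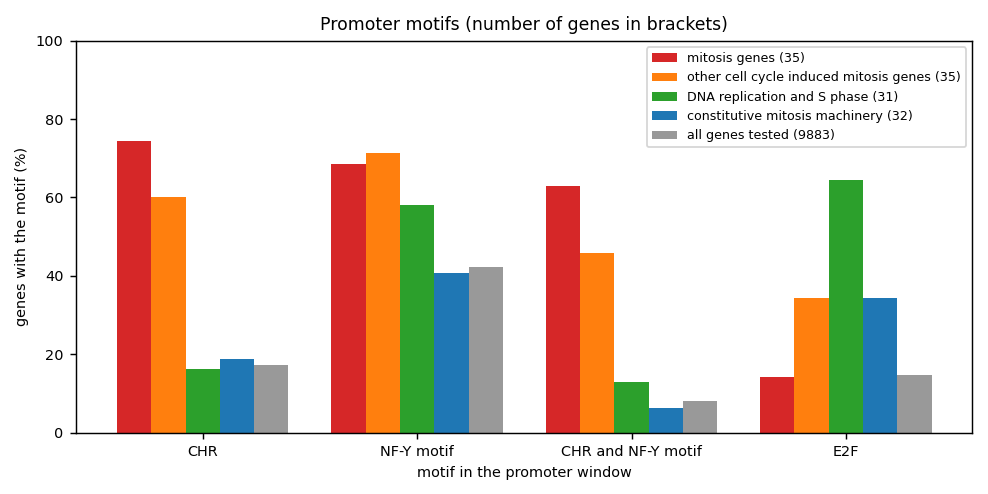
Share of genes (%, vertical axis) whose promoter window holds each motif, for the mitosis genes, 3 other gene lists and all tested genes; the NF-Y motif is the CCAAT box. The CHR stands at 74.3% in the mitosis genes and 17.3% in all tested genes, while E2F letters reach 64.5% only in the DNA replication list.

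After 24 hr O3 none of the 44 genes was called in either genotype (limma, adjusted p under 0.05 over all genes), with or without the Il10-/- air array whose Il10 level went against its label. Of all genes, 0.0484% were called higher in Il10+/+ mice, and in Il10-/- mice 1.32% were called higher and 0.766% lower. The median change over the 44 was -0.10 in Il10+/+ and -0.03 in Il10-/- mice on the log2 scale, and 2 and 5 genes had an unadjusted p under 0.05. With all 26 arrays the Il10-/- median was 1.09 and still none was called. The remaining 2 Il10-/- arrays of this time point differed from each other: the mean over the 44 genes was 5.70 on replicate 1 and 5.14 on replicate 3, while the 4 air arrays lay between 5.34 and 5.62. Ube2c, an enzyme that works with the anaphase-promoting complex, read 7.86 on replicate 1 and 4.75 on replicate 3, above and below all 4 air arrays (6.76 to 7.33). The count of 0 of the 44 at 24 hr in Il10-/- mice did not hold when replicate 3 or replicate 1 was left out. The mean at that time then rests on 1 array, which is assumed to vary like the other groups. How many of all genes were called in those fits is not given here, so they do not single out the mitosis genes.

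By 48 hr most of the genes had risen in both genotypes. The test called 34 of 44 higher than in air in Il10+/+ mice (2.71% of all genes), with a median change of 1.13. For Il10-/- mice it called 37 (4.04% of all genes), with a median of 1.47. After 72 hr the counts were 37 in Il10+/+ (2.47%) and 36 in Il10-/- mice (4.25%), with medians of 1.53 and 1.32. The median over all genes in these 4 comparisons lay between -0.03 and -0.02. None of the 44 was lower in any of them, although 1% and 0.686% of all genes were lower at 48 and 72 hr in Il10+/+ mice, as were 2.29% and 1.62% in Il10-/- mice. These counts leave out the array that went against its label of lung: with all 26 arrays in the model, which share 1 estimate of the spread, the changes in these comparisons were the same in size but for Il10+/+ 1 gene was called at 48 hr and 1 at 72 hr, and for Il10-/- the counts were 3 and 1. Without the array labelled Il10-/-, air 48 hr, replicate 1, the Il10-/- counts were 36 at 48 hr and 34 at 72 hr. The Il10+/+ counts were then 34 and 38. Every one of the 34 genes called at 48 hr in Il10+/+ mice was also called at 48 hr in Il10-/- mice, and 33 genes were called at both times in both genotypes.

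**Figure D2:**
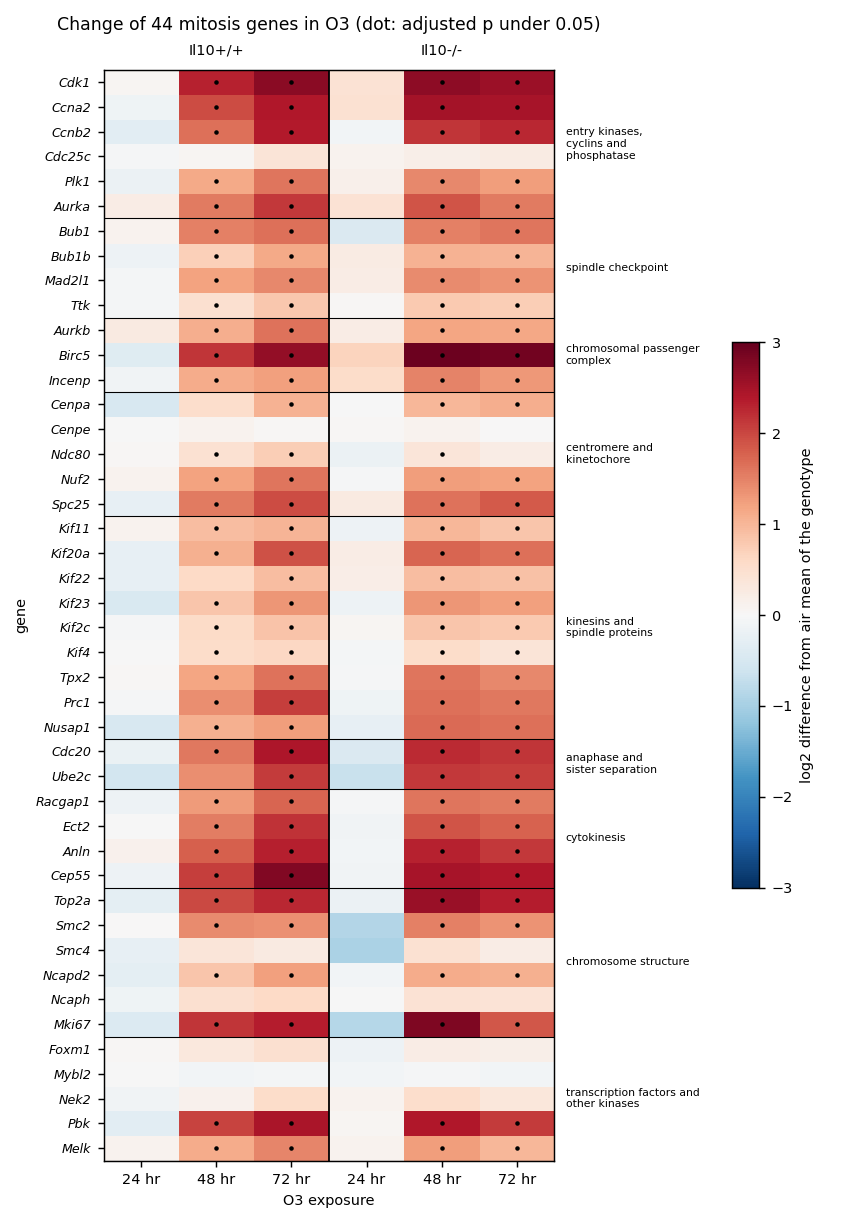
Log2 difference of each of the 44 genes (rows, grouped by role) from the air mean of the same genotype after 24, 48 and 72 hr O3 (columns); colour gives the size and a dot marks an adjusted p under 0.05. The 24 hr columns hold no dot, and the 48 and 72 hr columns hold 34 and 37 in Il10+/+ and 37 and 36 in Il10-/- mice.

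The step lay between 24 and 48 hr. Set against 24 hr O3 instead of air, 34 genes were higher at 48 hr in Il10+/+ mice (0.815% of all genes) and 35 in Il10-/- mice (1.97%), and none was lower (0.0726% and 1.32% of all genes). The second count rests on the model's shared spread, because only 2 Il10-/- arrays remain at 24 hr: when the model held just the 5 arrays of this comparison none was called, and with array weights 6 were. With all 26 arrays the counts for 48 against 24 hr were 0 in Il10+/+ and 1 in Il10-/- mice, and 9 of the 35 changes turned negative in Il10-/- mice. The first called time was 48 hr for 34 genes in Il10+/+ and 37 in Il10-/- mice (36 without the air array). With the probe sets used, it was 72 hr for 3 genes in Il10+/+ mice, namely the centromeric histone Cenpa, the chromokinesin Kif22 and Ube2c. At 48 hr their changes were already 0.54, 0.59 and 1.39 with adjusted p = 0.130, 0.197 and 0.0727. Another Kif22 probe set was called at 48 hr (0.75, limma adjusted p = 0.022 over all probe sets). For Ube2c the Il10+/+ 48 hr arrays (8.31 to 9.09) were all above air (7.03 to 7.64). Its shared spread took in an SD of 2.19 in the 24 hr O3 Il10-/- group, against 0.206 to 0.495 in the others.

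Of the 6 genes that drive entry into mitosis, 5 rose at 48 and 72 hr in both genotypes. Cdk1, the kinase that starts mitosis once bound to a cyclin, read 5.43, 6.08, 5.83 and 5.91 in Il10+/+ air, 7.71, 8.07 and 8.60 at 48 hr and 8.53, 8.38 and 8.68 at 72 hr. Its Il10-/- values were 5.22, 5.94, 5.33 and 6.27 in air, 8.66, 8.07 and 8.40 at 48 hr and 8.20, 8.39 and 8.18 at 72 hr. All 12 O3 arrays of these times were above all 8 air arrays. Its level was 4.97-fold higher at 48 hr in Il10+/+ mice (log2 change 2.31 ± 0.31 SE, adjusted p = 0.000118) and 6.42-fold higher in Il10-/- mice (2.68 ± 0.31, adjusted p = 1.093e-05). Its partner cyclins Ccna2 and Ccnb2 rose by 1.65 to 2.50 on the log2 scale over the 4 comparisons. The kinases Plk1 and Aurka, which mature the centrosomes and spindle, changed by 1.14 to 2.11. Cdc25c, the phosphatase that removes the inhibitory phosphates of Cdk1, passed in none: its largest change was 0.38 ± 0.11 at 72 hr in Il10+/+ mice (adjusted p = 0.0522).

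All 4 spindle checkpoint genes, which delay anaphase until every chromosome is attached, rose in all 4 comparisons. Bub1 read 4.92 to 5.23 in Il10+/+ air and 6.47, 6.53 and 6.75 at 48 hr, then 6.96, 6.78 and 6.44 at 72 hr. Il10-/- lungs read 4.77 to 5.06 in air, 6.68, 6.22 and 6.32 at 48 hr and 6.36, 6.79 and 6.36 at 72 hr. Its 4 changes lay between 1.50 and 1.66, all with non-overlapping arrays. Mad2l1 changed by 1.21 to 1.44, Bub1b by 0.71 to 1.14, and the kinase Ttk (Mps1) by 0.49 to 0.81.

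The 3 measured genes of the chromosomal passenger complex, which corrects faulty spindle attachments, also rose in all 4 comparisons. Birc5 (survivin) had the largest mean change of the 44. It read 5.13, 5.63, 5.48 and 5.72 in Il10+/+ air, 7.24, 7.74 and 7.96 at 48 hr and 8.09, 8.05 and 8.27 at 72 hr. The Il10-/- arrays read 4.67, 4.82, 5.08 and 5.43 in air, 8.24, 7.78 and 7.78 at 48 hr and 7.88, 8.14 and 7.67 at 72 hr. The levels in O3 thus overlapped between genotypes, and the larger change in Il10-/- mice (7.64-fold at 48 hr, against 4.44-fold) went with a lower air mean (5.00, against 5.49 in Il10+/+), a difference that was not called (adjusted p = 0.780). Aurkb, the kinase of the complex, changed by 1.09 to 1.63, and its scaffold Incenp by 1.12 to 1.48.

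Among 5 centromere and kinetochore genes, Nuf2 and Spc25 of the NDC80 complex, which grips the spindle microtubules, rose in all 4 comparisons. Spc25 read 4.96 to 5.18 in Il10+/+ air, 6.15, 6.66 and 7.06 at 48 hr and 7.06, 6.92 and 7.10 at 72 hr. On the Il10-/- arrays it read 4.58 to 5.26 in air, 7.06, 6.55 and 6.04 at 48 hr and 6.76, 7.03 and 6.45 at 72 hr, with no overlap with air in either genotype. Ndc80 itself rose less, by 0.46 and 0.74 in Il10+/+ mice and by 0.36 at 48 hr in Il10-/- mice, and had a change of 0.21 at 72 hr there (adjusted p = 0.247). Cenpa rose in 3 of the 4 comparisons, by 0.99 to 1.10. The motor Cenpe passed in none, with changes of 0.01 to 0.12, and its probe set was among the dimmest of the array (3.65 to 4.11 over the 25 arrays).

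With the probe sets used, the 9 spindle genes rose in all comparisons except Kif22 at 48 hr in Il10+/+ mice. Prc1, which bundles the microtubules of the central spindle, read 5.32 to 5.80 in Il10+/+ air, 6.63, 6.73 and 7.29 at 48 hr and 7.41, 7.48 and 7.77 at 72 hr. Its Il10-/- values were 5.36 to 5.74 in air, 7.64, 6.83 and 7.15 at 48 hr and 6.87, 7.40 and 7.16 at 72 hr. At 72 hr every Il10+/+ array was thus above every Il10-/- array, whereas at 48 hr the arrays of both genotypes overlapped. Kif20a, a motor of the central spindle, read 5.44, 5.49 and 5.79 at 48 hr and 6.37, 6.28 and 6.59 at 72 hr in Il10+/+ mice, against 4.29 to 4.63 in air. Tpx2, which activates Aurora A on the spindle, changed by 1.19 to 1.63 and Nusap1 by 1.06 to 1.71. The motors Kif23, Kif11 (which keeps the spindle poles apart), Kif2c and Kif4 changed by 0.38 to 1.32, and Kif22 by 0.89 to 0.93 where it passed.

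Cdc20, which activates the anaphase-promoting complex, read 6.74, 7.36, 7.80 and 7.34 in Il10+/+ air, 8.59, 9.03 and 9.08 at 48 hr and 10.08, 9.84 and 9.30 at 72 hr. Il10-/- lungs read 6.89, 7.52, 6.79 and 7.30 in air, 9.92, 9.01 and 9.12 at 48 hr and 9.47, 9.31 and 8.998 at 72 hr. It rose in all 4 comparisons. The spread that the model shares over all groups was wide for this set (SE 0.42). The SD of Cdc20 was 2.02 in the 24 hr O3 Il10-/- group and 0.24 to 0.49 in the others. Ube2c rose by 2.08 to 2.12 in the 3 comparisons in which it passed.

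All 4 cytokinesis genes rose in all 4 comparisons. Cep55, which brings the abscission machinery to the bridge between daughter cells, read 4.42, 4.73, 4.68 and 4.17 in Il10+/+ air, 6.44, 6.58 and 6.69 at 48 hr and 7.26, 7.36 and 7.19 at 72 hr. The Il10-/- arrays read 4.32, 4.38, 4.17 and 4.62 in air, 7.22, 6.86 and 6.44 at 48 hr and 6.95, 7.03 and 6.38 at 72 hr. The 72 hr Il10+/+ mean was 6.83-fold above air (2.77 ± 0.20, adjusted p = 3.343e-08). Anln, which anchors the contractile ring, changed by 1.80 to 2.33. Ect2 and Racgap1, which place and switch on the ring through RhoA, changed by 1.53 to 2.17 and by 1.27 to 1.75.

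Among 6 chromosome structure genes, Top2a, Mki67, Smc2 and Ncapd2 rose in all 4 comparisons. Top2a, the topoisomerase that untangles sister chromatids, read 6.29, 6.78, 6.51 and 6.59 in Il10+/+ air, 8.06, 8.54 and 8.94 at 48 hr and 8.97, 8.66 and 8.76 at 72 hr. On the Il10-/- arrays it read 5.60, 6.03, 5.99 and 6.93 in air, 9.08, 8.34 and 8.77 at 48 hr and 8.52, 8.48 and 8.47 at 72 hr. The genotypes overlapped at 48 hr, and at 72 hr each Il10+/+ array was above each Il10-/- array. Mki67, which encodes the proliferation marker Ki-67 that coats mitotic chromosomes, read 6.53, 7.01, 6.84 and 6.61 in Il10+/+ air, 8.33, 8.78 and 9.58 at 48 hr and 9.36, 9.20 and 8.73 at 72 hr. Its Il10-/- values were 5.60, 6.31, 5.95 and 6.39 in air, 9.32, 8.20 and 9.05 at 48 hr and 7.25, 7.96 and 8.56 at 72 hr. Its change was 6.94-fold at 48 hr and 3.64-fold at 72 hr in Il10-/- mice, and 4.43-fold and 5.10-fold in Il10+/+ mice. The condensin subunits did not move as 1 unit: Smc2 changed by 1.35 to 1.52 and Ncapd2 by 0.83 to 1.23, while Smc4 and Ncaph passed in none of the 4 with the probe sets used.

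**Figure D3:**
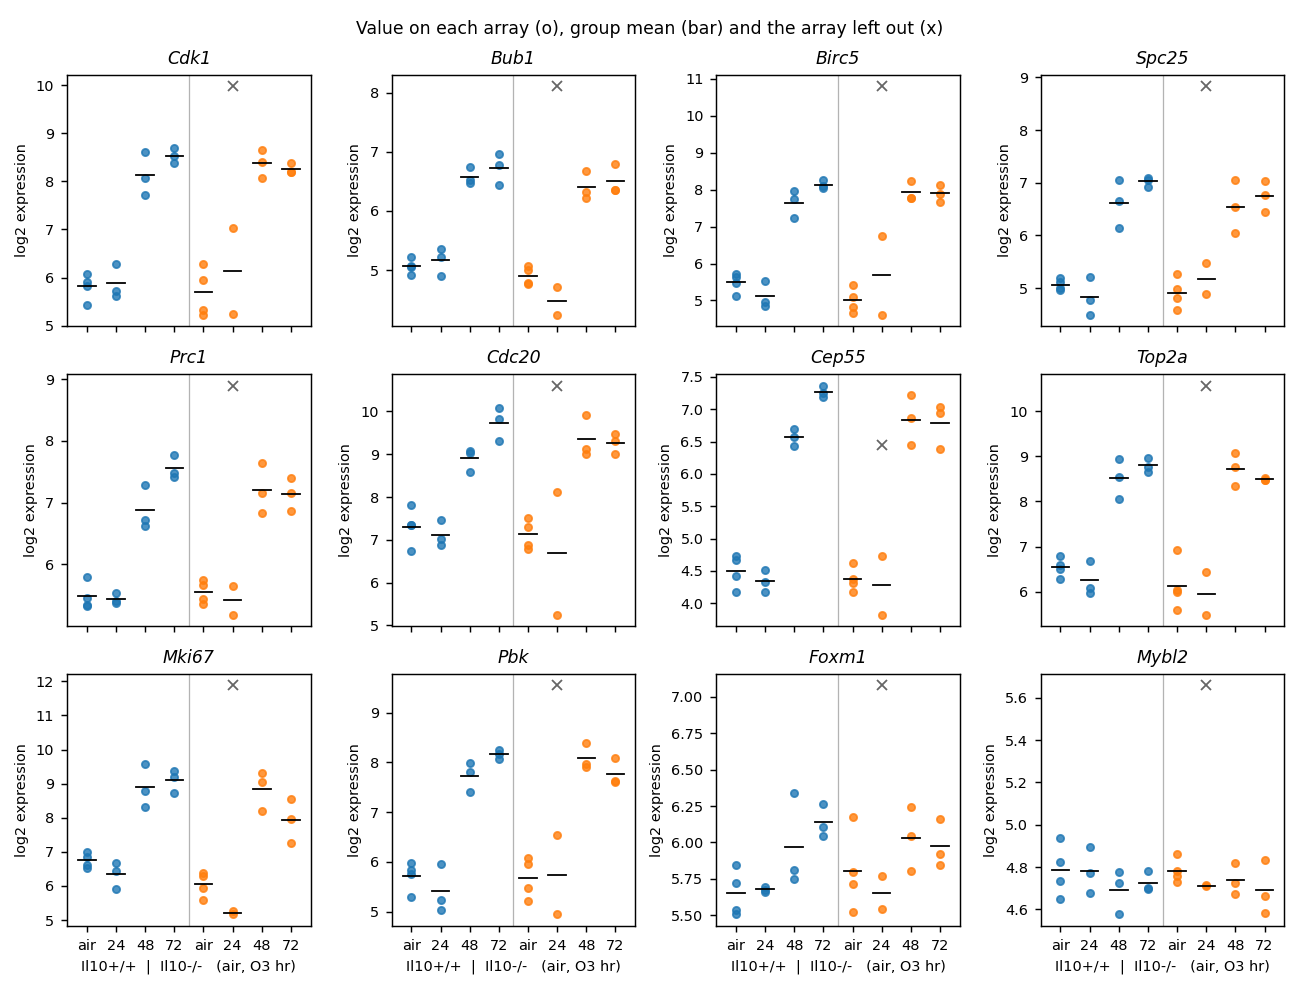
Log2 expression on each array (vertical axis; circles, blue Il10+/+ and orange Il10-/-) in air and after 24, 48 and 72 hr O3 for 12 genes, with group means as bars and the array left out as a cross. The 48 and 72 hr circles sit above all air circles for Cdk1 and the 9 genes after it in the grid, and not for Foxm1 and Mybl2.

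Of 5 transcription factors and other kinases, Pbk and Melk, kinases that are themselves mitotic genes, rose in all 4 comparisons. Pbk read 5.30, 5.98, 5.83 and 5.75 in Il10+/+ air, 7.39, 8.00 and 7.81 at 48 hr and 8.17, 8.25 and 8.07 at 72 hr. Il10-/- lungs read 5.21, 5.96, 5.48 and 6.07 in air, 8.40, 7.91 and 7.96 at 48 hr and 7.63, 8.09 and 7.62 at 72 hr. Every O3 array of these times was above every air array. Melk changed by 0.99 to 1.45.

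The transcription factors Foxm1 and Mybl2, which activate genes of this kind, passed in no comparison with the probe sets used. Foxm1, which binds with the MuvB complex at CHR elements in G2, read 5.72, 5.50, 5.53 and 5.84 in Il10+/+ air, 5.75, 5.81 and 6.34 at 48 hr and 6.27, 6.05 and 6.11 at 72 hr (change 0.49 ± 0.15, adjusted p = 0.0851). The Il10-/- arrays read 5.71, 6.17, 5.52 and 5.80 in air, 6.25, 5.81 and 6.04 at 48 hr and 5.85, 5.92 and 6.16 at 72 hr. The groups overlapped except at 72 hr in Il10+/+ mice. The result for Foxm1 depends on the probe set. A dimmer one (mean 4.91, against 5.86) was called higher in Il10-/- mice, by 0.52 after 48 hr and 0.44 after 72 hr O3. In Il10+/+ mice it was called after 72 hr (0.61) but not after 48 hr (0.31). These calls are by limma, with adjusted p under 0.05 over all probe sets. The remaining Foxm1 probe sets were not called. Mybl2 (B-Myb), the other partner of MuvB, stayed between 4.58 and 4.94 on all 25 arrays, with changes of -0.09 to -0.04. A change in the activity of such factors would not be seen on these arrays.

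The other 5 genes that passed in neither genotype with the probe sets used were Ncaph, Nek2, Smc4, Cdc25c and Cenpe. Ncaph, the condensin I kleisin, read 6.61 to 7.11 in Il10+/+ air, 7.09, 7.55 and 7.59 at 48 hr and 7.54, 7.54 and 7.46 at 72 hr. On the Il10-/- arrays it read 6.58, 6.73, 6.63 and 7.30 in air and 6.92 to 7.74 over both later times, so that air and O3 overlapped. Smc4, a condensin ATPase, read 8.46 to 8.98 in Il10+/+ air and 8.71 to 9.28 over 48 and 72 hr, and 7.84 to 8.46 and 7.64 to 8.96 in Il10-/- mice. The spread that the model shares over all groups was wide for Smc4 (SE 0.38), which limits what could be called. Its SD was 1.77 in the 24 hr O3 Il10-/- group, 0.27 to 0.60 in the other Il10-/- groups and 0.09 to 0.29 in the Il10+/+ groups. Nek2, a centrosome kinase, read 4.57 to 4.96 in Il10+/+ air and 5.16, 5.25 and 5.62 at 72 hr, a change of 0.55 ± 0.16 (adjusted p = 0.0688). Its change at 48 hr in Il10-/- mice was 0.53 ± 0.16 (adjusted p = 0.0574). Cdc25c read 4.17 to 4.45 in Il10+/+ air and 4.74, 4.55 and 4.70 at 72 hr, with no overlap. Of the 7 genes that passed in neither genotype, 4 had a promoter window (Cenpe, Ncaph, Mybl2 and Nek2) and none of these held a CHR, whereas 26 of the 31 others did. This split depends on the probe sets used. Another Ncaph probe set was called higher at 72 hr in Il10+/+ mice (0.51, limma adjusted p = 0.0349 over all probe sets). Only 0.871% of all genes were as dim as Cenpe or dimmer, and 22.1% for Mybl2.

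The 2 genotypes differed in when the genes stood highest, but not by a test on any single gene. In Il10+/+ mice 40 of the 44 had their highest mean at 72 hr, 3 at 48 hr and 1 at 24 hr. In Il10-/- mice 39 had it at 48 hr and 5 at 72 hr. The mean at 72 hr was above that at 48 hr in 41 of 44 genes in Il10+/+ mice (49.5% of all genes), by a median of 0.40, and in 5 of 44 in Il10-/- mice (49.5% of all genes), with a median of -0.07. These signs are of genes that share arrays and vary together, and are not 44 separate observations. With a median step of -0.07 in Il10-/- mice, a peak at 48 hr there cannot be told from a level course. No gene of all those tested was called between 72 and 48 hr in either genotype (percent called 0). In Il10+/+ mice 20 of the 44 had an unadjusted p under 0.05, and the lowest adjusted p was 0.136, for Kif20a (0.84 ± 0.15). In Il10-/- mice 1 did, Mki67 (-0.93 ± 0.33, adjusted p = 0.9999).

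The mean over the 44 genes on each array shows the same course. It was 6.48 to 6.95 at 48 hr and 7.03 to 7.13 at 72 hr in Il10+/+ mice, so the 72 hr arrays stood above all 48 hr arrays. In Il10-/- mice it was 6.68 to 7.12 at 48 hr and 6.71 to 6.89 at 72 hr, which overlap. At 72 hr the Il10+/+ arrays were above the Il10-/- arrays, and at 48 hr the genotypes overlapped. In 13 of the 44 genes no Il10-/- array reached the lowest Il10+/+ array at 72 hr (5.45% of all genes).

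**Figure D4:**
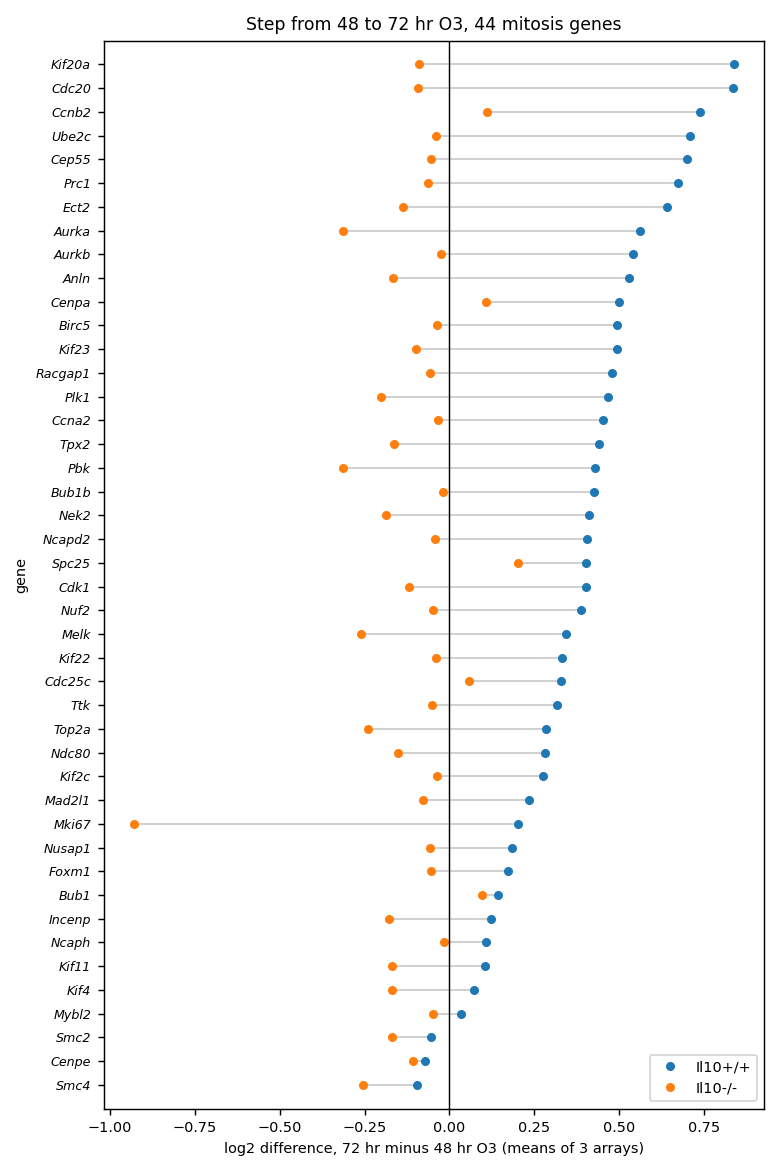
Difference between the 72 and 48 hr O3 means (log2, horizontal axis) of each of the 44 genes in Il10+/+ (blue) and Il10-/- mice (orange), ordered by the Il10+/+ value. Blue points lie above 0 for 41 genes and orange points for 5, and Mki67 has the lowest orange point at -0.93.

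The tests of genotype called none of the 44, with or without the array whose Il10 level went against its label. In air 10 genes had the higher mean in Il10-/- mice (44.2% of all genes did), with a median difference of -0.11, and 2 had an unadjusted p under 0.05. Of all genes, 0.00807% were called higher and 0 lower. Mki67 was 0.69 ± 0.29 lower in Il10-/- air (95% interval -1.29 to -0.09, adjusted p = 0.615). At 24 hr O3 the median difference was 0.03, with 0.169% of all genes higher and 0.492% lower, and the lowest adjusted p among the 44 was 0.0628, for Smc2 (-1.14 ± 0.27). That none of the 44 was called there did not hold without replicate 3 or without replicate 1 of the Il10-/- 24 hr arrays, which leaves 1 array in that group. At 48 hr O3 37 genes had the higher mean in Il10-/- mice (median 0.20, 44.7% of all genes above 0, 0.00807% called higher), with 2 unadjusted p under 0.05. At 72 hr O3 all 44 had the lower mean in Il10-/- mice (median -0.28, 44.4% of all genes above 0, 0.0242% called higher), with 9 unadjusted p under 0.05. The largest of these differences was that of Mki67, at -1.17 ± 0.33 (95% interval -1.87 to -0.48, limma adjusted p = 0.9999). All 12 B cell markers had a lower mean at 72 hr too (median -0.64). Their medians were also below 0 in air (-0.63), at 24 hr O3 (-0.54) and at 48 hr O3 (-0.43).

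The change from air, which takes the air level of each genotype into account, was also compared. The difference in O3 change (Il10-/- minus Il10+/+) had a median of 0.33 at 48 hr and -0.16 at 72 hr, with 1 and 3 unadjusted p under 0.05. No gene of all those tested was called at 24, 48 or 72 hr (percent called 0). At 24 hr this did not hold for the 44 without replicate 3 or without replicate 1 of the Il10-/- 24 hr arrays, which leaves 1 array in that group. For Ndc80 at 72 hr the difference in O3 change was -0.53 ± 0.14 (95% interval -0.83 to -0.23). An F test over all terms of the genotype-by-exposure interaction called none of the 44 and no other gene (percent called 0), and 3 of the 44 had an unadjusted p under 0.05. Without either of those same replicates the F test did call some of the 44. The step from 48 to 72 hr was also compared between genotypes, a test added after the pattern had been seen: it was smaller in Il10-/- mice in all 44 genes (median -0.47, 51.6% of all genes above 0), 13 had an unadjusted p under 0.05, and none was called (percent called 0). For Kif20a the step differed by -0.93 (95% interval -1.36 to -0.50).

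The rise extended to other genes of the cell cycle, and few genes of the mitosis machinery that is present throughout it were called. Of 39 further mitosis genes known to be induced in the cell cycle, 21 rose at 48 hr and 26 at 72 hr in Il10+/+ mice. In Il10-/- mice 25 and 22 did. Without the Il10-/- air array whose Il10 level went against its label, the counts were 20 and 26 in Il10+/+ mice. In Il10-/- mice they were then 24 and 19. The Il10+/+ counts can move with that array because all groups share 1 estimate of the spread. Cdca3, a trigger of Wee1 destruction, changed by 1.68 to 2.25, and Cdca5 (sororin), which protects sister cohesion, by 1.56 to 1.86. Of 38 DNA replication and S phase genes, 28 rose at each time in Il10+/+ mice, with 31 and then 28 for Il10-/- (29 and 27 without the air array). Rrm2, a subunit of the enzyme that makes deoxynucleotides, changed by 2.51 to 2.76, and Uhrf1, which carries DNA methylation across replication, by 1.68 to 2.06. In Il10-/- mice 5 of the 38, with or without the air array, were already higher at 24 hr (16 with all 26 arrays), when none of the 44 mitosis genes was called; the 2 arrays of that group read 6.97 and 6.29 for the mean of the 38, against 6.22 to 6.31 in air.

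Of 39 genes of mitosis machinery that is expressed through the cell cycle, 2 rose in each of the 4 comparisons, and 1 at each time in Il10-/- mice without the air array. Among all genes, the share called higher ran from 2.47% to 4.25% over these comparisons. So few calls cannot set this list apart from other genes. The genes called included Ran, the GTPase that guides spindle assembly and nuclear transport, which changed by 0.60 to 0.62 at 48 hr. Rangap1, the activating protein of Ran, changed by 0.53 and 0.72 in Il10+/+ mice. At 48 hr in that genotype both were near the threshold (limma adjusted p = 0.0461 for Ran and 0.0423 for Rangap1). Of 30 G1 cyclins, E2F factors and CDK inhibitors, 5 rose at 48 hr and 3 at 72 hr in each genotype, and without the air array 5 and 2 in Il10-/- mice. Ccne2 (cyclin E2) rose by 0.81 and 0.79 at 48 hr. Wee1, the kinase that restrains Cdk1, rose by 0.79 and 0.72 in Il10-/- mice. Ccnd2 (cyclin D2) fell by 0.61 and 0.56 in Il10-/- mice, and Cdkn1c (p57), which holds cells out of the cycle, fell by 0.56 at 72 hr in Il10+/+ mice. Rbl1 (p107), a pocket protein of the DREAM complex, fell by 0.58 at 24 hr in Il10-/- mice and rose by 0.50 to 0.65 in the 4 later comparisons. Ccnd2 also fell at 24 hr in Il10-/- mice, by 0.57. Without the air array the 24 hr change of Rbl1 was -0.52 (adjusted p = 0.0647) and the 48 hr change of Ran in Il10-/- mice 0.54 (adjusted p = 0.116). With all 26 arrays at most 1 gene of the 39 further mitosis genes and none of the 38 replication genes was called in any of the 4 later comparisons.

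**Figure D5:**
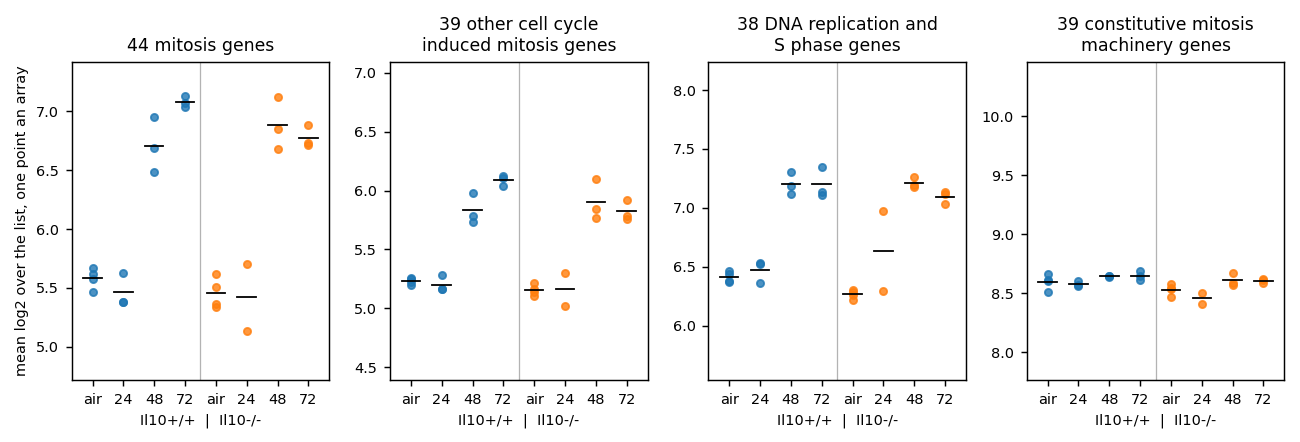
Mean log2 expression over each of 4 gene lists on each of 25 arrays (points; bars are group means), in air and after 24, 48 and 72 hr O3, blue Il10+/+ and orange Il10-/-; all panels span the same log2 range. The 44 mitosis genes go from 5.47 to 5.67 in Il10+/+ air to 7.03 to 7.13 at 72 hr, while the 39 constitutive genes stay between 8.40 and 8.69 on all 25 arrays.

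Markers of cell types were measured on the same arrays. Between O3 and air at 48 and 72 hr, the medians of the B cell list were -0.70 and -0.39 for Il10+/+ and -0.44 and -0.23 for Il10-/-, with none of its 12 genes called. At 24 hr, when the mitosis medians were near 0, the B cell median was -0.51 in Il10+/+ mice and the neutrophil median 0.56 in Il10-/- mice. Of 12 endothelial markers, 3 fell at 48 and at 72 hr in Il10-/- mice (3 and 1 without the air array) and 1 at 48 hr in Il10+/+ mice; their mean level was 10.66 to 10.79 in Il10+/+ air and 10.40 to 10.55 at 72 hr, and 10.69 to 10.74 and 10.25 to 10.54 in Il10-/- mice. Of 11 macrophage and monocyte markers 1 rose, at 72 hr in Il10-/- mice, where the mean level was 8.96 to 9.18, against 8.53 to 8.69 in air. Of 12 neutrophil markers 1 rose at 24 and 1 at 72 hr in Il10-/- mice (1 and 0 without the air array). None of 12 B cell, 13 T cell, 7 erythroid or 10 fibroblast and smooth muscle markers was called in the comparisons of O3 with air. The mean level of the B cell markers was 7.20 to 7.73 in Il10+/+ air and 6.30 to 7.21 at 48 hr O3. Of 7 alveolar type 1, 10 alveolar type 2, 9 club cell and 6 ciliated cell markers, at most 2 of a list were called in any comparison. Between genotypes, all 12 B cell markers had the lower mean in Il10-/- mice in air (median -0.63, 8 with an unadjusted p under 0.05) and at 72 hr O3 (median -0.64, 2 with an unadjusted p under 0.05), and none was called. At 24 and 48 hr O3 the medians of these markers were -0.54 and -0.43, with 1 of the 12 above 0 each time. Their mean level was 6.02 to 7.14 in Il10-/- air and 6.19 to 7.16 at 72 hr, against 7.10 to 7.18 at 72 hr in Il10+/+ mice. Of the 12 neutrophil markers 11 had the higher mean in Il10-/- mice at 72 hr O3 (median 0.27, none called). The part of these shifts in the results for the mitosis genes was not tested.

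The 44 genes varied together. Over the 25 arrays the median Pearson r of the levels of 946 gene pairs was 0.89, with a range of -0.35 to 0.99. With each group's mean taken off it was 0.32, with a range of -0.67 to 0.91. The pairs share arrays and normalization, and these values describe these arrays alone. Of the 44 genes 20 had more than 1 probe set. Of all 74 probe sets, 41 were higher at 48 hr and 52 at 72 hr in Il10+/+ mice, against 51 and 49 for Il10-/- (48 and 45 without the air array whose Il10 level went against its label), and no gene had probe sets called both higher and lower.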

How the data were processed

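Left lung RNA was hybridised to Affymetrix arrays. The deposited values are log2 expression, which the authors computed by RMA (Robust Multichip Average; RMAExpress, version not given in the sources used here), which corrects background, normalizes quantiles over all arrays and can compress small differences of dim probe sets. They were used as deposited. Genes were named with the platform annotation of 2016 (691 probe sets with several symbols and 1606 unnamed ones left out), giving 12394 genes.

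Over 25 arrays, limma 3.58.1 in R 4.3.3 fitted 1 mean per group with empirical Bayes moderation, and p-values were adjusted by Benjamini-Hochberg over all 12394 genes, with a threshold of 0.05. Depth does not apply to arrays, and their number limits the precision. Alternatives were all 26 arrays, matched air, other probe set rules, centring, weights, covariates, the methods' two-way analysis of variance and leaving out each array. Code was tested on simulated data.

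Counts in the other lists without the Il10-/- air array and with all 26 arrays were added after seeing the data. The genes, roles, other lists and motifs were chosen with earlier results of these data known. Array values are printed for the gene with the largest mean change of each role, Cdk1, Mki67 and genes never called with the probe sets used. From each other cell cycle list, the 2 called genes with the largest changes and those called lower are named. The labels call the samples biological replicates. Same-numbered samples were paired only in the labels; their deviations from group means had r from -0.03 to 0.46, over 0.1 in 15 of 21 pairs. They were over 0.1 in all pairs between 48 and 72 hr O3, so these comparisons were also made with a replicate block.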

Additional observations from a re-analysis of the deposited data

Results flagged for a closer look

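In the groups of 4 air arrays, 3 of 88 gene and group pairs held an array far from the other 3, and chance gives about 1 in 20. Nusap1 read 5.69 on the first 24 hr air array of Il10+/+ mice, against 5.95 to 6.00 on the others. Incenp read 7.06 on the second 48 hr air array of Il10-/- mice, against 6.39 to 6.47. Kif22 read 6.35 on the second 24 hr air array of Il10-/- mice, against 6.61 to 6.66.

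The array of 24 hr O3 in Il10-/- mice that entered no comparison carried the mitosis genes at a level found on no other array. The median over the 44 genes was 9.05 on it, 5.22 to 5.76 on the Il10-/- air arrays and at most 7.32 on any other array. Of the 44 genes, 43 were higher on it than on all other 25 arrays, with a median difference of 3.43 from the other arrays of its group. The same count over all genes is not given here, so whether the 44 stood out on this array in that respect cannot be told. The exception among the 44 was Cep55, at 6.44.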

How the results depend on the processing

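With all 26 arrays the called genes fell to 1 at 48 and 1 at 72 hr in Il10+/+ mice, to 3 and 1 in Il10-/- mice, and to 0 and 1 for 48 against 24 hr O3. The direction of 48 against 24 hr then turned in Il10-/- mice for Bub1b (-0.019), Ttk (-0.30), Aurkb (-0.32), Cenpa (-0.24), Ndc80 (-0.38), Nuf2 (-5e-04), Kif11 (-0.13), Kif4 (-0.42) and Ncapd2 (-0.20). Leaving out the dimmest genes (by mean level) took members out of the fit, with 22 called at 48 hr in Il10+/+ mice, 23 for 48 against 24 hr in Il10-/- mice and 1 between genotypes at 24 hr. Leaving out the 5 arrays whose names carry the letter c leaves 1 array of 24 hr O3 in Il10-/- mice. The counts of 0 at 24 hr in Il10-/- mice, between genotypes at 24 hr and for the interaction then did not hold. Array weights gave 1 between genotypes at 72 hr, 2 for 72 against 48 hr in Il10+/+ mice and 6 for 48 against 24 hr in Il10-/- mice, where only the arrays compared gave 0. The methods' two-way analysis of variance gave 2 interactions at an unadjusted threshold of 0.01 and 0 adjusted. The causes were not tested.

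Leaving out 1 array gave 27 to 36 genes at 48 hr and 36 to 38 at 72 hr in Il10+/+ mice, and 35 to 38 and 34 to 36 in Il10-/- mice. It gave 26 to 36 for 48 against 24 hr in Il10+/+ mice and 32 to 37 in Il10-/- mice. Several counts of 0 turned on the 2 arrays of 24 hr O3 in Il10-/- mice. Without replicate 3 they became 9 at 24 hr, 8 between genotypes at 24 hr, 6 for the genotype difference in the change at 24 hr and 3 for the interaction, and without replicate 1 they became 3, 2, 1 and 1. Over all arrays left out these ranges were 0 to 9, 0 to 8, 0 to 6 and 0 to 3. Without replicate 2 of 48 hr air in Il10+/+ mice 1 was called at 24 hr in Il10-/- mice and 1 between genotypes at 24 hr, and without replicate 2 of 24 hr air in Il10+/+ mice 1 was called in the latter. The count for 72 against 48 hr in Il10+/+ mice was 0 to 1, the 1 without replicate 2 or 3 of 48 hr O3 in Il10-/- mice. With the replicate block no call was lost and no count moved by more than 1 gene: 35 were called at 48 hr in Il10+/+ mice and 37 in Il10-/- mice, 37 and 36 at 72 hr, 35 and 36 for 48 against 24 hr, and 0 for 72 against 48 hr in both genotypes.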
